A study of Mus musculus with 2 samples.

Results

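The genes described here encode the proteins of the cytosolic ribosome. They were chosen by symbol, as probe sets assigned to a single gene named Rpl or Rps with a number, Rplp0, Rplp1, Rplp2 or Rpsa, without the S6 kinases and without pseudogenes. This gave 106 probe sets (each a set of short probes read as 1 signal) for 50 genes, out of 34945 single-gene probe sets for 18193 genes on the array. No probe set was assigned to Rplp1 alone. Of the 50 genes, 22 encode proteins of the large subunit and 21 proteins of the small subunit. A further 5 are paralogs of subunit proteins (Rpl3l, Rpl22l1, Rpl39l, Rps4l and Rps27l). The last 2 meet the symbol rule without being subunits, namely Rps19bp1, a binding partner of Rps19, and Rpl7l1, a relative of Rpl7. Another 31 symbols that meet the rule occurred solely on probe sets listing several genes and have no value of their own here.

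RNA came from dissected air pouch membranes of female BALB/c mice aged 6 to 8 weeks. The air pouch is a cavity raised with air under the skin of the back, and its lining stands in for a synovial membrane. MSU pouches had received 2 mg of monosodium urate (MSU) crystals in 1 ml PBS, and control pouches 1 ml PBS alone, 9 h before dissection. RNA of 3 mice was pooled per condition, and each pool was hybridized to 1 array. Replicates are thus lacking, no test between conditions was possible, and all values describe these 2 pools.

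The cytosolic ribosome consists of a small subunit, which reads the mRNA, and a large subunit, which joins amino acids. Its proteins are made in near-equal amounts, and their mRNAs are among the most abundant in most cells. Many of these mRNAs begin with a C followed by a run of pyrimidines, the 5′ terminal oligopyrimidine (TOP) tract, through which mTOR signalling and the RNA-binding protein Larp1 control their translation. This control acts on translation, which these arrays did not measure.

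The TOP tract was looked for in RefSeq sequence (GRCm38.p6) around the annotated starts, on the strand of the gene. Of the 50 genes, 44 were matched, among them 38 of the 43 core subunit genes. Runs were counted from a C onward, whatever the bases upstream of it. A run of at least 5 pyrimidines counted from a C exactly on an annotated start was present in 8 of the 38 core subunit genes (21.1%). The same was true of 813 of 27025 genes in the whole sequence table (3.01%) and of 823 of its 32851 starts (2.51%). It was present in 0 of 67 matched mitochondrial ribosomal protein genes. Within 10 bases of a start, such a run was found in 23 of the 38 core genes (60.5%), in 31 of the 67 mitochondrial ribosomal protein genes (46.3%) and in 9297 of the 27025 genes (34.4%). The 8 sequences are printed because they carry the feature that the family is known for. Capitals mark the pyrimidine run from the annotated start onward, and each window starts 12 bases upstream of that start. In all 8 windows the base before the capitals is also a pyrimidine, so the run in the genome extends further upstream.
Rpl14, chr9:120571505-120571534 (plus strand): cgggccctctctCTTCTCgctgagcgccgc
Rps6, chr4:86857350-86857379 (minus strand): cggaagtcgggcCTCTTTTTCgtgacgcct
Rps10, chr17:27635227-27635256 (minus strand): ccgcgcacgcccCTTCCTTTCCagcctccg
Rplp2, chr7:141447639-141447668 (plus strand): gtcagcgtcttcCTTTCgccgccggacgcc
Rpl38, chr11:114668568-114668597 (plus strand): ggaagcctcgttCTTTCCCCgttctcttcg
Rpl35, chr2:39005114-39005143 (minus strand): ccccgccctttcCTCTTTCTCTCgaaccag
Rps27, chr3:90213631-90213660 (minus strand): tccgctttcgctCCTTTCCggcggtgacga
Rps18, chr17:33955648-33955677 (minus strand): gtcacttccgctCTCTCTTCCacaggaggc

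For comparison, the windows of the 4 members with the lowest and the 4 with the highest MSU over control ratio are shown, among members with an annotated start. Capitals mark the nearest such run within 10 bases of the start, where there was any. It is again counted from a C onward, so pyrimidines can precede the capitals. For Rpl3l, the first of its annotated starts is given. The absence of capitals says no more than that these letters lack a run near this annotated start. In 4 of the 8 genes a run lay near the start, in Rps9, Rpl3l, Rpl27a and Rpl22l1, and in none did the capitals begin exactly on it.
Rps9, chr7:3704029-3704058 (plus strand): gccttgtctCTCTTTgtctcgggcctgagt
Rps15, chr10:80292419-80292448 (plus strand): ggcagagctcgcgataactgcgcaagcgca
Rpl3l, chr17:24727814-24727843 (plus strand): tgttctagctctgtcatttgaCCTCTggtg
Rpl37, chr15:5116601-5116630 (plus strand): ttcctgggcggaagcttatccacaggaagt
Rpl27a, chr7:109519183-109519212 (plus strand): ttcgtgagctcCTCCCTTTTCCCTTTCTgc
Rpl22l1, chr3:28805496-28805525 (plus strand): cggcgcaagcccgttCTCTTCCCacggctg
Rps28, chr17:33824545-33824574 (minus strand): accgcgtgcggtctcgcgagagcgaaagtg
Rps19bp1, chr15:80264289-80264318 (minus strand): ggcggaagtagctcgccgcgtgtgggcggg

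The deposited values are linear signals, and their mean, trimmed by 2% at either end, was 150.0 on both arrays. A ratio (fold) is MSU over control and is given where both signals reached the detection floor, 74.1 on the MSU array and 64.6 on the control array. Each gene is represented by the brightest of its probe sets. Over all 10045 genes with a fold, the median log2 ratio was -0.05. Probe sets of the same gene differed in their log2 ratios with a pooled SD of 0.33 over 4002 genes, which holds no variation between mice. The arrays also carry 18 probe sets for bacterial and phage spike-in RNA (the bioB, bioC, bioD and cre controls). All 18 gave more signal with the MSU pool (median 1.37-fold). Whether these controls follow the amount of membrane RNA was not tested. Scaling on them lowers every log2 ratio by 0.46, so directions are given under the deposited scaling.

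Most ribosomal protein transcripts had a slightly lower signal in MSU than in control membranes. All of the genes but Rps16, which has 1 probe set with 2.98 in the MSU pool and 3.16 in the control pool, lay above both floors. Of these 49 genes, 36 had a ratio below 1, against 5521 of the 10045 genes with a fold (55.0%). Their median log2 ratio was -0.23, a ratio of 0.853, with quartiles of -0.35 and 0.01. Over all genes with a fold the quartiles were -0.36 and 0.23. The median of the members stayed below 0 under each of the 9 other settings tried and 0.17 to 0.28 below that of all genes. Median scaling and scaling on the spike-ins shift all log2 ratios alike, so they could not change this distance.

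Few ribosomal protein genes had large ratios under the deposited scaling. Of the 49 genes, 7 were at least 1.5-fold lower, which is close to the 14.1% of all genes that were. None was at least 1.5-fold higher, against 8.31% of all genes. The log2 ratios of 36 genes lay within the pooled SD of 0.33. At the other sizes tried, 14 genes were lower by 0.32 or more on the log2 scale, against 27.7% of all genes, and none was higher by as much, against 18.7%. At least 2-fold lower were 2 genes (Rps9 and Rps15), against 4.18% of all genes, and none was 2-fold higher, against 3.55%. Of the genes beyond the pooled SD, 13 were lower by more than this SD, against 27.3% of all genes, and none was higher by more than it, against 18.4%.

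**Figure D1:**
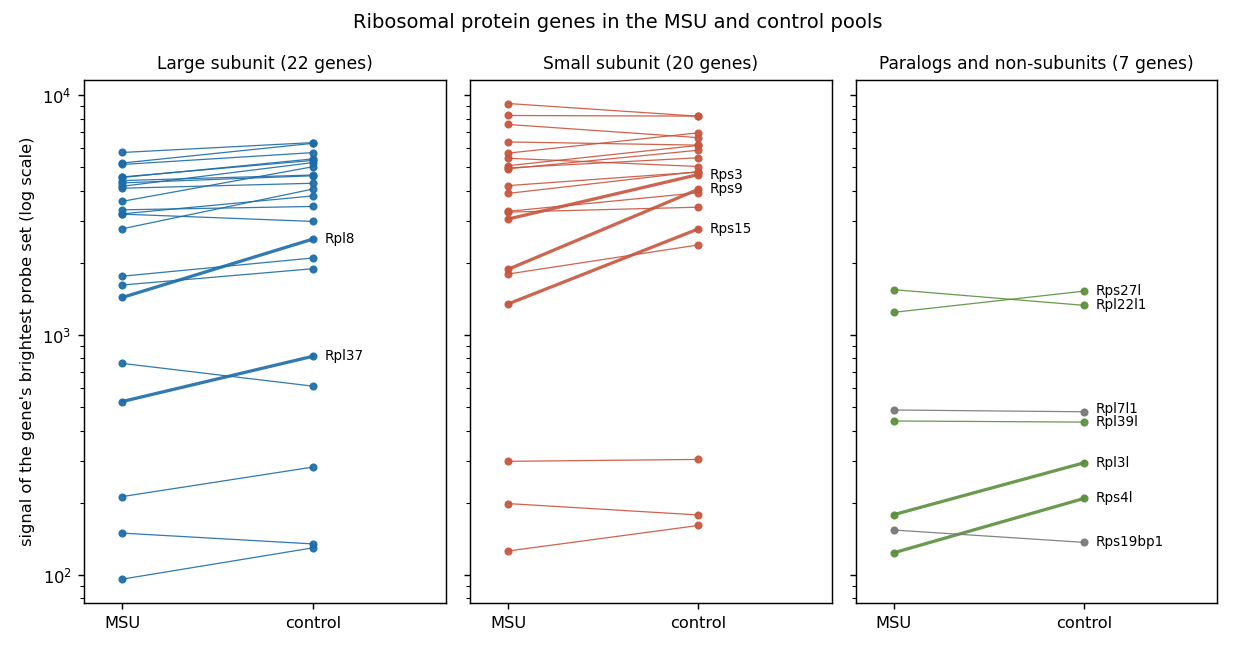
Signal (y axis, log scale) of the brightest probe set of each ribosomal protein gene in the MSU pool (left) and the control pool (right), 1 array per pool, with a line per gene. Thick lines are the 7 genes at least 1.5-fold lower in the MSU pool, and most other lines run nearly level.

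The subunits had similar medians. The 22 large subunit genes had a median log2 ratio of -0.24, and 19 had a ratio below 1, against 55.0% of all genes. The 20 small subunit genes with a fold had a median of -0.22, and 14 had a ratio below 1, against the same share. Log2 ratios ran from -1.11 to 0.18 in the small subunit and from -0.81 to 0.31 in the large subunit. The lower end of the small subunit was set by the brightest probe set of Rps9, which had -0.47 with the median over its probe sets. The 5 paralogs had a median of -0.29, 3 of them with a ratio below 1, near the share of 55.0% among all genes. Of the 2 genes that are no subunits, Rps19bp1 had 154 in the MSU pool and 137 in the control pool (1.13-fold higher), and Rpl7l1 had 487 in the MSU pool and 479 in the control pool (1.02-fold higher). Both had ratios below 1 after spike-in scaling, and Rpl7l1 also with median scaling and with the median over its probe sets. Members of a family are not replicates, so the difference between the subunits was not tested.

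Among small subunit genes, Rps9, whose product takes part in the accuracy of decoding, had the lowest ratio. Its signal was 1880.3 in the MSU pool and 4056 in the control pool, or 2.16-fold lower. A further probe set of Rps9 had 169 in the MSU pool and 233 in the control pool, whereas its last one had 122 in the MSU pool and 99.7 in the control pool, a log2 ratio of 0.29. The direction of Rps9 therefore differed between its probe sets. Rps15, a protein of the small subunit head, had 1349 in the MSU pool and 2773 in the control pool, 2.06-fold lower. Its other probe set had 1344 in the MSU pool and 1997 in the control pool, a log2 ratio of -0.57, so both pointed the same way.

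Rps3 lines the channel through which mRNA enters the ribosome and is also known as a partner of NF-κB in the nucleus. Its brightest probe set had 3047 in the MSU pool and 4672 in the control pool, 1.53-fold lower. Its others had 241 in the MSU pool against 232 in the control pool, and 111 against 74.4, so that their log2 ratios were 0.05 and 0.57. The 3 probe sets of Rps3 spanned 1.19 on the log2 scale, and those of Rps9 spanned 1.40, the only members of the family to exceed 1.

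Other small subunit genes differed by less than 1.5-fold. Rps6, the substrate of the S6 kinases, had 126 in the MSU pool and 161 in the control pool (1.28-fold lower). These signals are low, and the log2 ratio of Rps6 moved from -0.35 to -0.17 with the floor added as a pseudocount. The other probe set of Rps6 lay below both floors. Rps19, which is mutated in Diamond-Blackfan anaemia in humans, had 1798 in the MSU pool and 2378 in the control pool (1.32-fold lower). Rpsa, also known as the laminin receptor, had 5087 in the MSU pool and 6183 in the control pool (1.22-fold lower). The log2 ratios of Rps3a1, Rps10, Rps14, Rps4x, Rps24 and Rps7 lay between -0.30 and -0.14, and those of Rps26 and Rps27 at -0.07 and -0.03. All of these 8 differences lay within the pooled SD. Rps24 had a log2 ratio of 0.21 without probe sets ending in _x_at or _s_at.

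The small subunit genes with a ratio above 1 were Rps28, Rps29, Rps25, Rps20, Rps18 and Rps2. Rps28 had 7556 in the MSU pool and 6659 in the control pool (1.13-fold higher), but its other probe sets had log2 ratios of 0.01 and -0.01. Rps29 had 9239 in the MSU pool and 8177 in the control pool (1.13-fold higher). All 3 probe sets of Rps29 had a ratio above 1, as in no other member with several, but its log2 ratio was -0.02 with quantile normalization. Rps25 had 198 in the MSU pool and 178 in the control pool, while Rps20 had 5463 in the MSU pool and 5047 in the control pool. All of these log2 ratios lay within the pooled SD, and all turned to below 0 under scaling on the spike-ins.

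Among large subunit genes, Rpl8, which lies near the centre where the peptide bond forms, had the lowest ratio. It gave 1436 on its single probe set in the MSU pool and 2514 in the control pool, 1.75-fold lower. Rpl37 had 529 in the MSU pool and 816 in the control pool, 1.54-fold lower. Rpl19 followed with 2776 in the MSU pool and 4064 in the control pool (1.46-fold lower), and Rpl6 with 3613 in the MSU pool and 5033 in the control pool (1.39-fold lower). Each of these genes was measured by 1 probe set, so its value has no second measurement.

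Rpl14 had 96.1 in the MSU pool and 130 in the control pool (1.35-fold lower), near the floor. Rpl39, a small protein at the exit tunnel for the new peptide, had 212 in the MSU pool and 282 in the control pool (1.33-fold lower). The remaining large subunit genes below 1 had log2 ratios between -0.33 and -0.05. They included Rpl11, which can bind and block the p53 regulator Mdm2, with 1761 in the MSU pool and 2097 in the control pool (1.19-fold lower). Rpl13a, known in human monocytes as a part of the interferon-γ-activated inhibitor of translation, had 4174 in the MSU pool and 5240 in the control pool (1.26-fold lower). Rpl13a was lower on all 4 of its probe sets, with log2 ratios of -0.83 to -0.18.

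The acidic P proteins form the stalk that recruits elongation factors to the large subunit. Rplp0, the base of the stalk, had 5147 in the MSU pool and 5766 in the control pool (1.12-fold lower). Rplp2 had 3204 in the MSU pool and 3805 in the control pool (1.19-fold lower). Rplp0 is often used as a reference gene in PCR. Its log2 ratio of -0.16 lay closer to 0 than the family's median.

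The large subunit genes with a ratio above 1 were Rpl27a, Rpl12 and Rpl22. Rpl27a had the highest ratio of the family, with 762 in the MSU pool and 613 in the control pool (1.24-fold higher). Rpl12 had 150 in the MSU pool and 135 in the control pool (1.11-fold higher). Rpl22 had 3195 in the MSU pool and 2980 in the control pool on its brightest probe set (1.07-fold higher), but log2 ratios of -0.05 and -0.50 on the others. All 3 genes turned to below 0 under scaling on the spike-ins.

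The paralogs did not share a direction. Rpl3l, which replaces Rpl3 in the ribosomes of skeletal and heart muscle, had 178 in the MSU pool and 294 in the control pool (1.65-fold lower). Markers of skeletal muscle were lower too: 12 of 20 were past 1.5-fold on the lower side and 0 on the higher side. Of all genes with a fold, 14.1% and 8.31% were. The summed signal of the muscle markers was 35506 in the MSU pool and 58032 in the control pool. Their log2 ratios ran from -2.36 to 0.20 with a median of -0.74, and the log2 ratio of Rpl3l was -0.72. Whether a lower share of muscle RNA set the ratio of Rpl3l was not tested. In whole membranes, fewer cells of a type and less RNA per cell cannot be told apart.

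Rps4l, a mouse relative of Rps4x, had 124 in the MSU pool and 209 in the control pool (1.69-fold lower), whereas Rps4x itself had 4937 in the MSU pool and 5901 in the control pool (1.20-fold lower). Rps4l had 1 probe set, and its log2 ratio moved from -0.75 to -0.47 with the floor added as a pseudocount. Rps27l, a target of p53, had 1245 in the MSU pool and 1526 in the control pool (1.23-fold lower), and all 3 of its probe sets had log2 ratios between -0.40 and -0.29. Its relative Rps27 had 298 in the MSU pool and 303 in the control pool. Rpl22l1, the paralog of Rpl22, had 1547 in the MSU pool and 1331 in the control pool (1.16-fold higher), but had a ratio below 1 after spike-in scaling. Rpl39l had 439 in the MSU pool and 434 in the control pool.

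The 106 probe sets allow a look at the family beyond 1 value per gene. Of these, 91 lay above both floors and 15 below both, and none lay above 1 floor alone. Of the 91, 69 had a ratio below 1, against 50.6% of all single-gene probe sets with a fold. Their median log2 ratio was -0.22, against -0.01 for all such probe sets. At least 1.5-fold lower were 12 of the 91, against 12.2%, and 0 were at least 1.5-fold higher, against 10.2%. The family's shift was therefore present without choosing 1 probe set per gene.

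Several probe sets with a fold were present for 20 genes. In 9 of these, all probe sets had a ratio below 1 (Rpl7, Rpl13a, Rpl37a, Rpl41, Rps7, Rps10, Rps14, Rps15 and Rps27l), in 1 all had a ratio above 1 (Rps29), and in 10 the directions differed. The span between the lowest and the highest log2 ratio of a gene had a median of 0.44, which exceeds the size of the family's median shift. Rpl7 showed this for a large subunit gene: its brightest probe set had 4313 in the MSU pool and 4616 in the control pool (1.07-fold lower), and its others 2078 in the MSU pool against 3424 in the control pool, and 1705 against 3221, log2 ratios of -0.72 and -0.92. Rpl41, the smallest protein of the ribosome, had 5219 in the MSU pool and 6303 in the control pool on 1 probe set, and 2363 in the MSU pool and 3976 in the control pool on another.

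**Figure D2:**
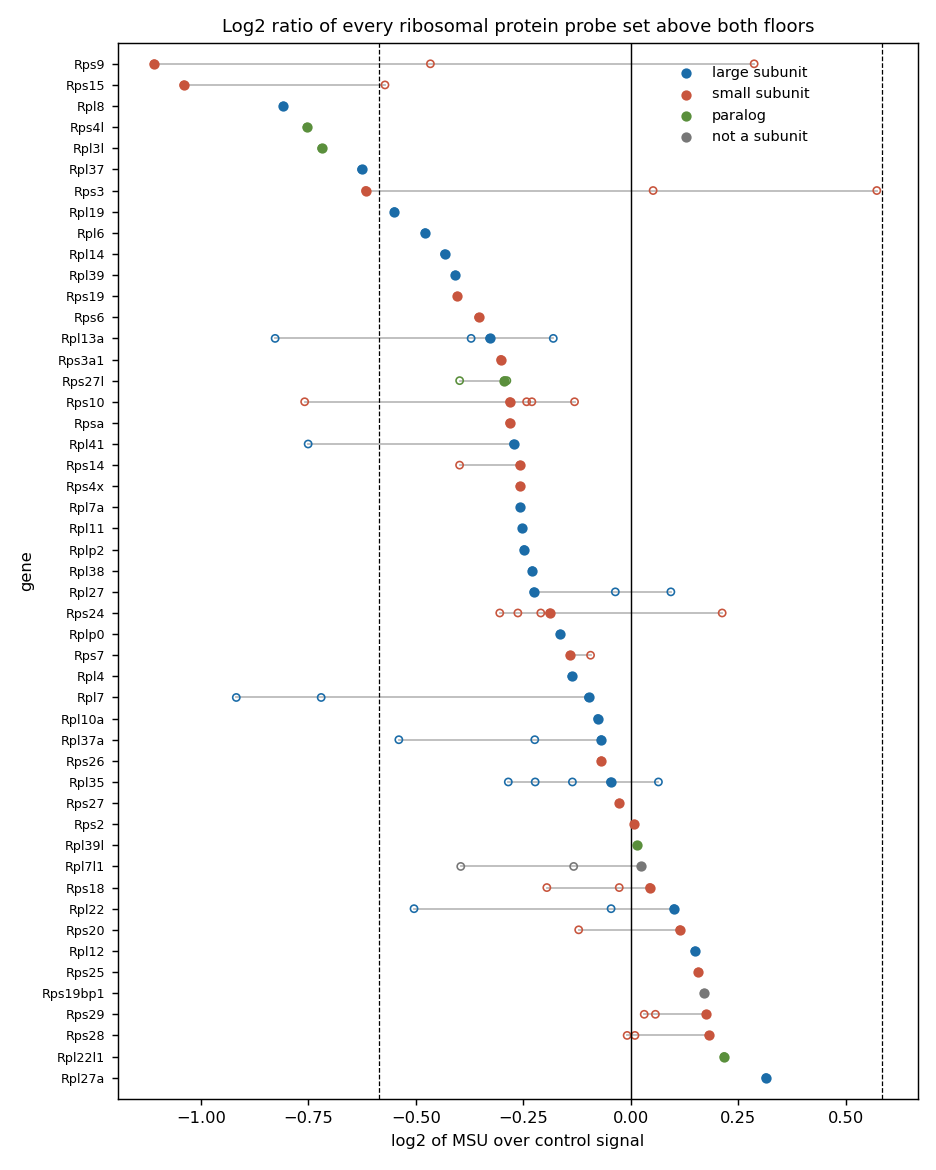
Ratio of MSU to control signal, as log2 (x axis), of each ribosomal protein gene (y axis, from lowest to highest), 1 array per pool. Filled points are the brightest probe set, open points the other probe sets above both floors, grey lines their span and dashed lines 1.5-fold. Most points lie left of 0, and the probe sets of Rps9 and Rps3 lie on both sides of it.

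Ribosomal protein genes have many processed pseudogenes, so probes can match more than 1 locus. Of the 91 probe sets with a fold, 37 had names ending in _x_at, the Affymetrix mark for probes that also match other sequences. Of these 37, 29 had a ratio below 1 and their median log2 ratio was -0.19. The 27 probe sets ending in _a_at, which match several transcripts of 1 gene, had a median of -0.25 with 24 below 1. The 24 ending in _at with no further letter had a median of -0.09 with 14 below 1, the nearest to all single-gene probe sets with a fold. Of all these, 50.6% had a ratio below 1, and their median was -0.01. The 3 members ending in _s_at, which include the brightest probe set of Rps9, had a median of -0.50 with 2 below 1. Beyond the members, 95 probe sets above both floors listed a ribosomal protein gene beside further genes. Of these, 67 had a ratio below 1 and their median log2 ratio was -0.12. With these probe sets added, the median over probe sets was -0.14, against -0.22 without them.

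Most signals of the family were high, and ratios on these arrays varied with signal. Of the 49 genes, 21 had a mean log2 signal of 12 or more, and 16 of these 21 had a ratio below 1, with a median log2 ratio of -0.16. Among the 93 other genes in this range, 31 had a ratio below 1 and the median was 0.14. For mean log2 signals of 11 to 12, the median was -0.26 for 9 ribosomal protein genes and 0.10 for 278 others. In the ranges 6 to 8, 8 to 9, 9 to 10 and 10 to 11, it was -0.38 (8 members), 0.02 (3), -0.16 (2) and -0.27 (6). For the other genes it was -0.05, -0.08, -0.06 and 0.001 in these ranges. After subtraction of the dependence on signal by loess, the family's median was -0.24, close to -0.23 as deposited.

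**Figure D3:**
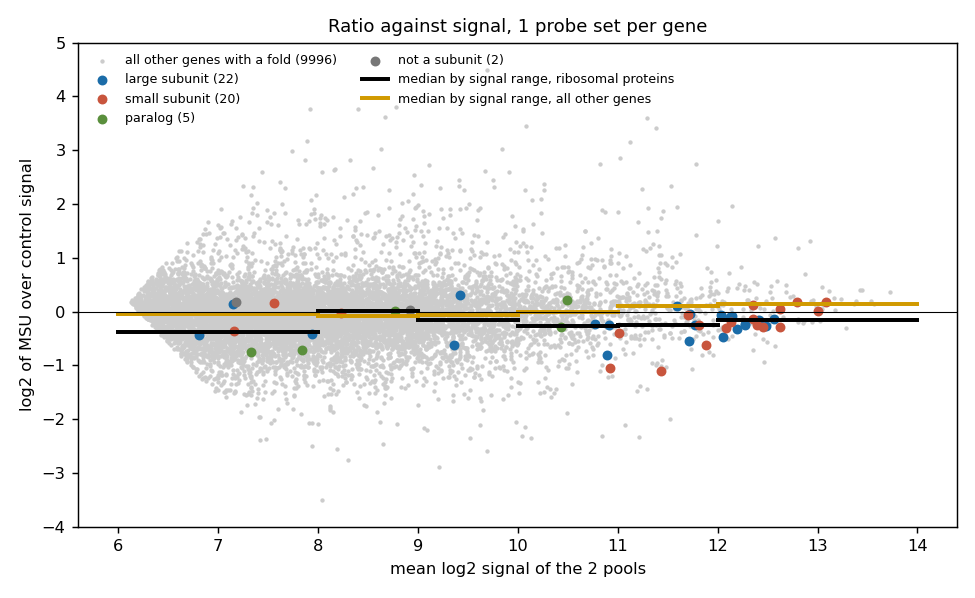
Log2 of MSU over control signal (y axis) against the mean log2 signal of both pools (x axis), 1 probe set per gene. Grey points are all other genes with a fold, coloured points ribosomal protein genes, and horizontal bars medians by signal range. At mean log2 signals of 12 or more, the medians are -0.16 for ribosomal protein genes and 0.14 for the other genes.

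Proteins of the mitochondrial ribosome, which translates the few mRNAs of the mitochondrial genome, were lower in the MSU pool by more than those of the cytosolic ribosome. Of 74 genes with a fold, 64 had a ratio below 1, 30 of them by 1.5-fold or more, and 0 were as far above 1, where 55.0%, 14.1% and 8.31% of all genes lay. Their median log2 ratio was -0.47, against -0.23 for the cytosolic family. The lowest was Mrps18a, with 149 in the MSU pool and 545 in the control pool (3.67-fold lower), followed by Mrpl54 with 77.5 in the MSU pool and 234 in the control pool (3.02-fold lower). The highest was Mrpl52, with 617 in the MSU pool and 454 in the control pool (1.36-fold higher). The median of the mitochondrial list lay below that of the cytosolic family under all 9 other settings, by 0.14 to 0.26. Median scaling and scaling on the spike-ins could not change the distance between the lists. This difference was not tested.

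Other genes of translation did not form a uniform group. Fau, which encodes the small subunit protein S30 fused to a ubiquitin-like protein and falls outside the symbol rule, had 1744 in the MSU pool and 2954 in the control pool (1.69-fold lower). The elongation factor list held 9 genes, among them Eef2k, the kinase of eEF2, and Eef1e1, which are no elongation factors. Of these 9, 6 had a ratio below 1, against 55.0% of all genes, and the median log2 ratio was -0.39. Their summed signal was 30031 in the MSU pool and 28887 in the control pool. Eef1d, the exchange factor of the eEF1 complex, had 431 in the MSU pool and 1031 in the control pool (2.40-fold lower). In contrast, Eef1a1, which brings aminoacyl-tRNA to the ribosome and whose mRNA has a TOP tract, had 12715 in the MSU pool and 11046 in the control pool (1.15-fold higher). Eef2, which moves the ribosome along the mRNA, had 5715 in the MSU pool and 5543 in the control pool. The directions of Eef1a1 and Eef2 turned under scaling on the spike-ins.

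The initiation factor list held 36 genes, among them Pabpc1 and the eIF4E-binding proteins Eif4ebp1 and Eif4ebp2. Of these 36, 21 had a ratio below 1, 6 of them by 1.5-fold or more, and 0 were as far above 1. Their median log2 ratio was -0.06, close to -0.05 over all genes, and the shares of all genes were 55.0%, 14.1% and 8.31% for these 3 counts. Eif3h, a subunit of eIF3, had 803 in the MSU pool and 1461 in the control pool (1.82-fold lower). Eif4e, which binds the mRNA cap, had 676 in the MSU pool and 1033 in the control pool (1.53-fold lower). Pabpc1, the poly(A)-binding protein and a TOP mRNA, had 6988 in the MSU pool and 5023 in the control pool (1.39-fold higher). A list of other genes with TOP transcripts held 19 with a fold, among them the non-coding Gas5 and Snhg1. It shares genes with the elongation and initiation factor lists, for example Eef1d, Eif3h and Pabpc1. Of the 19 genes, 12 (63.2%) had a ratio below 1, against 55.0% of all genes. Their median log2 ratio was -0.09.

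Genes of ribosome assembly had a median on the other side of 0. Of 66 biogenesis genes with a fold, 41 had a ratio above 1 and 25 (37.9%) a ratio below 1, where 55.0% of all genes lay. Their median log2 ratio was 0.11, which became -0.34 under scaling on the spike-ins. At least 1.5-fold higher were 3 genes, against 8.31% of all genes. They were Rcl1, with 486 in the MSU pool and 183 in the control pool (2.66-fold higher), Riok2 (1.88-fold) and Heatr1 (1.72-fold). At least 1.5-fold lower were 7 biogenesis genes, against 14.1% of all genes. Among these 7 were Nop16, with 91.6 in the MSU pool and 184 in the control pool (2.01-fold lower), and Ebna1bp2 (1.89-fold). The abundant nucleolar proteins nucleolin (Ncl) and nucleophosmin (Npm1) had log2 ratios of -0.05 and -0.09. Of 10 genes of RNA polymerase I and its cofactors, which transcribe ribosomal RNA, 5 had a ratio below 1 and 5 a ratio above 1. This is near the share of 55.0% below 1 among all genes. Ribosomal RNA itself was not measured.

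**Figure D4:**
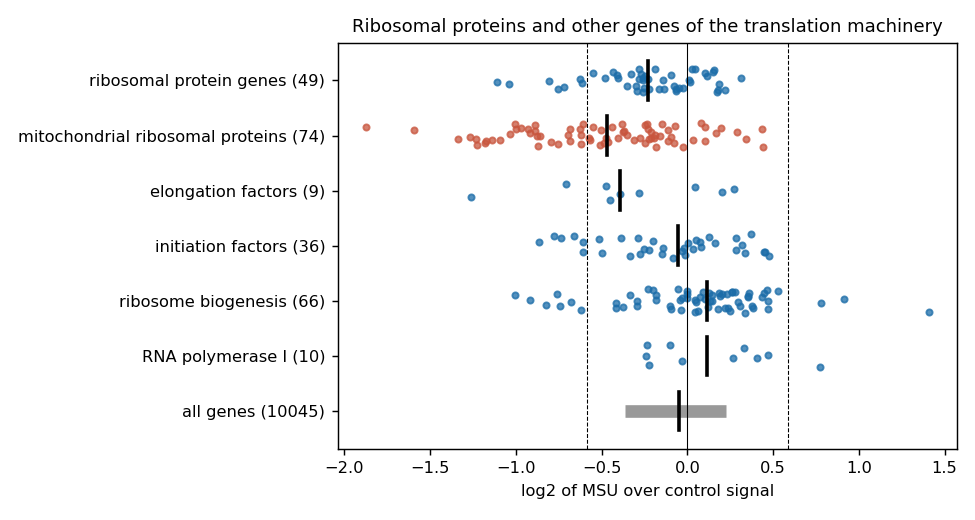
Ratio of MSU to control signal, as log2 (x axis), of genes in 6 lists and the quartile range of all genes (grey bar), with the number of genes with a fold in parentheses. Black bars are medians and dashed lines 1.5-fold. The median is -0.23 for ribosomal protein genes, -0.47 for mitochondrial ribosomal proteins and 0.11 for ribosome biogenesis, the last below 0 after spike-in scaling.

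Markers of several cell types also differed between the pools. Of all genes with a fold, 55.0% had a ratio below 1, 14.1% were at least 1.5-fold lower and 8.31% at least 1.5-fold higher. Of 12 neutrophil markers with a fold, 10 were at least 1.5-fold higher, and the summed signal of the 18 markers with a named probe set was 28023 in the MSU pool and 3966 in the control pool. Among them, the granule genes Camp, Elane and Prtn3 lay below both floors, and Ltf was 1.45-fold lower. All 10 adipocyte markers with a fold had ratios below 1 by 1.5-fold or more, with a summed signal over 14 markers of 10484 in the MSU pool and 29490.1 in the control pool. Of 10 glandular epithelium markers, 3 had a fold, all below 1, and 6 reached the floor in the control pool alone, and the summed signal of the 10 was 648 in the MSU pool and 2524 in the control pool. Macrophage markers went both ways: 3 of 12 with a fold were at least 1.5-fold lower, among them Trem2 (5.15-fold), and 2 at least 1.5-fold higher, Cd163 (1.94-fold) and Mrc1 (1.78-fold). Their summed signal was 29805 in the MSU pool and 30893 in the control pool. Fibroblast markers went both ways too: of 11 with a fold, 5 had a ratio below 1 and 6 a ratio above 1. Their median log2 ratio was 0.06. At least 1.5-fold lower was 1 of them, Fap (1.65-fold), and 1 was at least 1.5-fold higher, Pdgfra (log2 ratio of 0.59). The summed signal of the fibroblast markers was 67486 in the MSU pool and 60209 in the control pool. Of 11 lymphocyte markers, 9 lay below both floors, among them Cd3e, Cd4, Cd79a and Ms4a1. The 2 with a fold were Il7r (2.74-fold higher) and Cd8a (log2 ratio of -0.01). The part of these shifts in the ratios of ribosomal protein genes was not tested.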

How the data were processed

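The authors extracted RNA from air pouch membranes, pooled it from 3 mice per condition and hybridized each pool to 1 Affymetrix Mo430_2 array. The deposited values are linear signal intensities for 45101 probe sets, made by the authors with Affymetrix software, which the submitters' processing notes name as MAS5 (version not given in the sources used here), and scaled to a common trimmed mean. Genes were named from the platform annotation, updated through RefSeq (GRCm38.p6). Probe sets with several genes (932) were used for no gene.

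The detection floor of each array, 74.1 (MSU) and 64.6 (control), was placed by signal rank so that the number of probe sets at or above it equalled the number the study called detected. The methods give another inflation schedule for the pouch than the labels do. Ratios were taken as MSU over control. The size of 1.5-fold is a fixed limit and no test. Members and lists were chosen with earlier results of these data known. All members could be named, and full values were given for the 8 highest and 8 lowest ratios, members at least 1.5-fold apart, the P proteins, Rpsa, paralogs, non-subunits and members whose probe sets span over 1 log2. The starts with a TOP tract were added to the printed sequences after values were known. Some further members were named for their known roles. The gene step was tested on simulated data. Computations used Python 3.11.15, pandas 2.3.3 and statsmodels 0.14.6. Alternatives were 4 other scalings, 3 other floors, the median over probe sets, other probe sets, core subunits alone and other fold sizes.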

Additional observations from a re-analysis of the deposited data

How the results depend on the processing

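The family's median log2 ratio, between -0.31 and -0.19 under the other settings, became -0.69 under scaling on the spike-ins, which lowers all ratios alike. The other medians under that scaling were -0.69 for the large subunit, -0.68 for the small subunit, -0.68 for the probe sets, -0.92 for mitochondrial ribosomal proteins, -0.85 for elongation factors, -0.51 for initiation factors and, with the sign turned, -0.34 for ribosome biogenesis. The number of ribosomal protein genes at least 1.5-fold lower was 30 of 49 under that scaling, where 43.2% of all genes were, and 4 of 50 with the floor added as a pseudocount, where 5.22% were, against 7 of 49 as deposited. With the pseudocount, Rpl37, Rpl3l and Rps4l fell short of 1.5-fold (log2 ratios of -0.55, -0.50 and -0.47), as did Rpl37 with loess (-0.58). At least 0.32 lower on the log2 scale were 14 genes, and at least 2-fold lower 2. None was at least 1.5-fold higher under any setting. The log2 ratio of Rps3 turned to 0.052 with the median over its probe sets, and Rps9 to 0.29 without probe sets ending in _x_at or _s_at. Signs of smaller ratios also changed, in Rpl22, Rpl7l1, Rps18 and Rps20 with that median, and in Rpl22, Rps18 and Rps24 (0.21) without those probe sets. Median scaling turned Rpl39l, Rpl7l1, Rps18 and Rps2 to below 0. Loess turned Rps18 and Rps2 to below 0 and Rps27 to above 0. Quantile normalization turned the same genes as loess, and Rps29 to -0.02. The pseudocount turned Rps27 to 0.02. Scaling on the spike-ins turned all members with a ratio above 1. The median of all genes was -0.51 under scaling on the spike-ins and 0.09 with the pseudocount, against -0.05. Adding probe sets that list further genes, an alternative chosen after seeing the data, moved the median over probe sets to -0.14, against -0.22. No paired analysis was possible because each condition had 1 array. Precision is limited by there being 1 array per pool.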

Other observations

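Regulators linked to ribosomal proteins were also measured. Myc, a transcription factor that drives ribosome production, had 526 in the MSU pool and 214 in the control pool (2.46-fold higher). Mdm2, which free Rpl11 can bind, had 597 in the MSU pool and 384 in the control pool (1.55-fold higher), and the p53 target Cdkn1a had 2012 in the MSU pool and 731 in the control pool (2.75-fold higher). All 3 stayed above 0 on the log2 scale after the shift of 0.46 from the spike-ins.

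Of 19 genes of mTOR signalling, S6 kinases and TOP-binding proteins with a fold, 12 (63.2%) had a ratio below 1, against 55.0% of all genes. Their median log2 ratio was -0.07. Larp1 had 777 in the MSU pool and 670.2 in the control pool (1.16-fold higher, but below 1 after spike-in scaling), and Mtor 234 in the MSU pool and 236 in the control pool. Cnbp, which binds TOP mRNAs, had 1028 in the MSU pool and 1928 in the control pool (1.88-fold lower). Larp4b, an RNA-binding protein of the same wider family as Larp1, had 1052 in the MSU pool and 665 in the control pool (1.58-fold higher).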
